A study of Homo sapiens with 3 samples.

Results

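The G1 cell-cycle regulators examined here were 10 genes chosen by name: the cyclins CCND1, CCND2, CCND3 and CCNE1, the kinases CDK4 and CDK6, the inhibitors CDKN1B and CDKN2A, and the downstream pair RB1 and E2F3. They were 10 of 20163 protein-coding genes annotated on hg19 (GRCh37). For each gene, every RUNX2 peak and every CBFB peak within 25 kb of the gene body was collected, and the gene body with 25 kb to either side is called its window. This gave 8 of the 9941 RUNX2 peaks and 26 of the 27246 CBFB peaks. The data were chromatin immunoprecipitation and sequencing (ChIP-seq) peak lists from untreated SAOS2 cells, a human osteosarcoma line that lacks p53, grown for less than 20 passages. RUNX2 was precipitated with a custom antibody and CBFB with a commercial antibody from Bethyl, with 1 library each. The third library, input DNA without antibody, was not analysed here.

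RUNX2 is the DNA-binding transcription factor of the bone lineage, and CBFB is the partner that joins RUNX proteins and does not contact DNA itself. In G1 phase, the D-type cyclins activate CDK4 and CDK6, and these kinases phosphorylate the retinoblastoma protein RB. Phosphorylated RB releases E2F factors such as E2F3, which switch on the genes for DNA replication, cyclin E among them. The inhibitors brake this sequence, p27 (from CDKN1B) on cyclin-kinase complexes and p16 (from CDKN2A) on CDK4 and CDK6. CDKN2A also encodes ARF, which stabilises p53. SAOS2 cells are known to lack functional RB protein, so that the RB1 gene is described here as a stretch of chromatin and not as a working brake.

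RUNX2 peaks lay near CCND3, CDK4, CDK6, CDKN1B and RB1, which is 5 of the 10 genes. Among all protein-coding genes, 36.0% had a RUNX2 peak within the same reach. CBFB peaks lay near 7 of the 10, the same 5 genes with CCND2 and E2F3, beside 62.2% of all protein-coding genes. Genes with both proteins were thus 5 of 10, beside 35.1%, and genes with CBFB alone 2 of 10, beside 27.1%. CCND1, CCNE1 and CDKN2A had no peak of either protein, which was also the case for 36.9% of all genes. Longer windows held peaks more often, and when protein-coding genes were divided into 5 groups of equal size by window length, the share with a RUNX2 peak ran from 26.1% in the shortest to 49.0% in the longest group. Averaged over the length groups of the 10 genes, the share was 39.8% for RUNX2 and 66.3% for CBFB. The number of genes with a peak was thus near that of genes of like length.

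**Figure D1:**
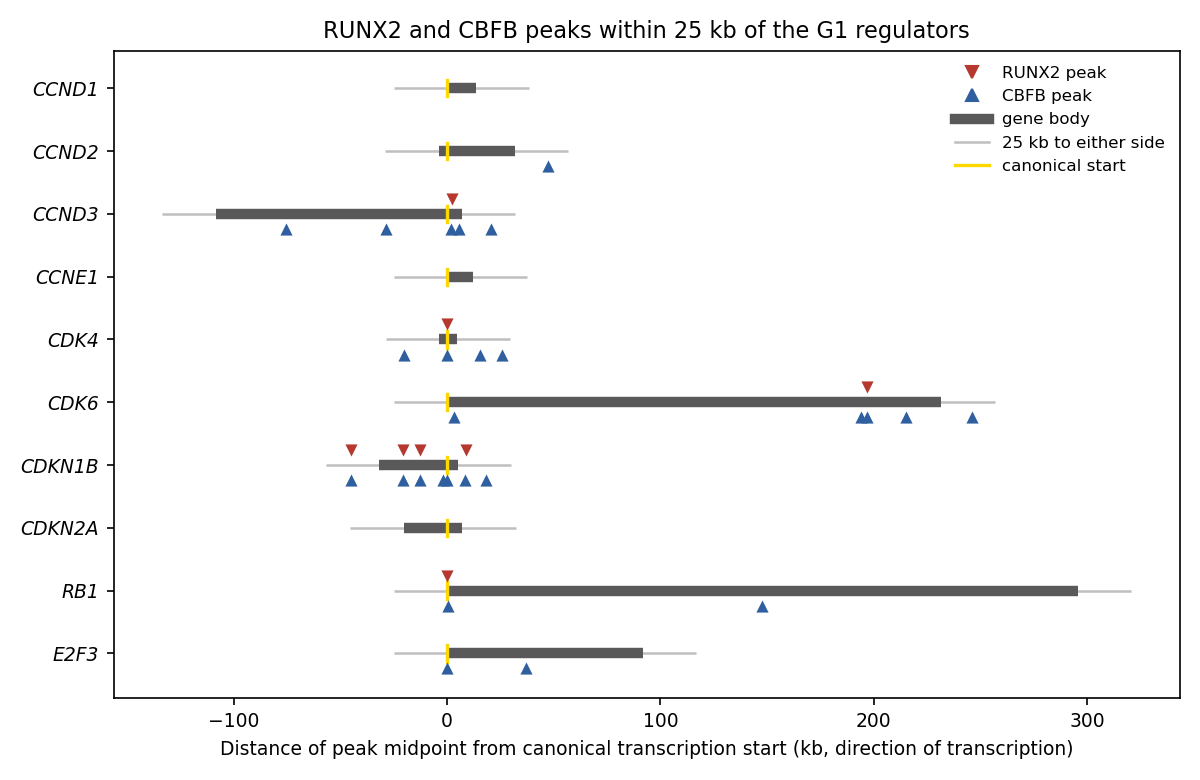
RUNX2 peaks (red, above) and CBFB peaks (blue, below) within 25 kb of the 10 genes, placed by the distance of the peak midpoint from the start of the canonical transcript in kb, with transcription running to the right. The 4 RUNX2 peaks of CDKN1B stand apart from the 1 peak each of CCND3, CDK4, CDK6 and RB1, and CCND1, CCNE1 and CDKN2A have none.

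The sequences below show what lay under the peaks of highest score. The RUNX core motif (TGTGGT, or ACCACA where it is read on the opposite strand) was present in some peaks of these genes and absent from others. Each is read 5′ to 3′ from GRCh37 on the strand that carries the motif, with the RUNX core in capitals. The first 3 lines are from RUNX2 peaks, in the order CCND3 (chr6:41907294-41907323, minus strand), CDK4 (chr12:58145822-58145851, minus strand) and the intron of CDK6 (chr7:92269023-92269153, minus strand). The end of the CDK4 line runs past the edge of its peak, at 58145832, while the core lies inside it.
CCND3: tgctgtcactccTGTGGTttgggaagtggc
CDK4: aagtggggccttTGTGGTcatgggaaagta
CDK6: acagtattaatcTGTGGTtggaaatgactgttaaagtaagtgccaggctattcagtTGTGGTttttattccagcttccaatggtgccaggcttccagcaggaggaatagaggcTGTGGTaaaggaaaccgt
The next 2 lines are from RUNX2 peaks of CDKN1B, the first from the peak of highest score (chr12:12825104-12825133, minus strand) and the second from the intron (chr12:12857611-12857640, plus strand).
CDKN1B upstream: aggactgcagccTGTGGTcaacttaaacct
CDKN1B intron: tataaatacagtTGTGGTttggaatagttg
CCND2 and E2F3 had CBFB peaks without a RUNX2 peak, and their core copies follow, from chr12:4430064-4430093 and chr6:20403078-20403107, both on the minus strand.
CCND2: ggcgcactgattTGTGGTtgttgcgattga
E2F3: tggagtgtttgaTGTGGTtcgcgccaaggc
The RUNX2 peak of RB1 held no RUNX core, and at both RB1 (chr13:48877851-48877880, plus strand) and E2F3 (chr6:20402046-20402075, minus strand) the peak over the start held the same E2F motif, shown in capitals in the last 2 lines.
RB1 E2F: ggaagtgacgtTTTCCCGCggttggacgcg
E2F3 E2F: cgaaactcggaTTTCCCGCcggcttttcaa

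To ask how the G1 genes ranked within each list, the score of each peak, as given by the peak caller, was expressed as a percentile, which is the share of the list with an equal or lower score. The 8 RUNX2 peaks had scores of 55.15 to 119.48 with a median of 72.2, beside a median of 84.1 over the whole list. Their percentiles ran from 11.8 to 71.7 with a median of 35.6. Thus 4 of the 8 lay above the middle of the list and 0 lay in its top 20%. The 26 CBFB peaks had scores of 51.01 to 480.42 with a median of 78.3, beside a median of 121 over the whole list, and their median percentile was 27.6. Of these, 8 lay above the middle of the list, 2 in its top 20% and 1, at CDK6, in its top 10%. By count the RUNX2 peaks were therefore evenly divided about the middle of their list, but their median lay below it. Those above the middle stood at 50.3 to 71.7 and those below it at 11.8 to 21.0. Of the 26 CBFB peaks, 18 lay below the middle of their own list. Score levels were not compared between lists because the score depends on library depth, which is unknown.

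**Figure D2:**
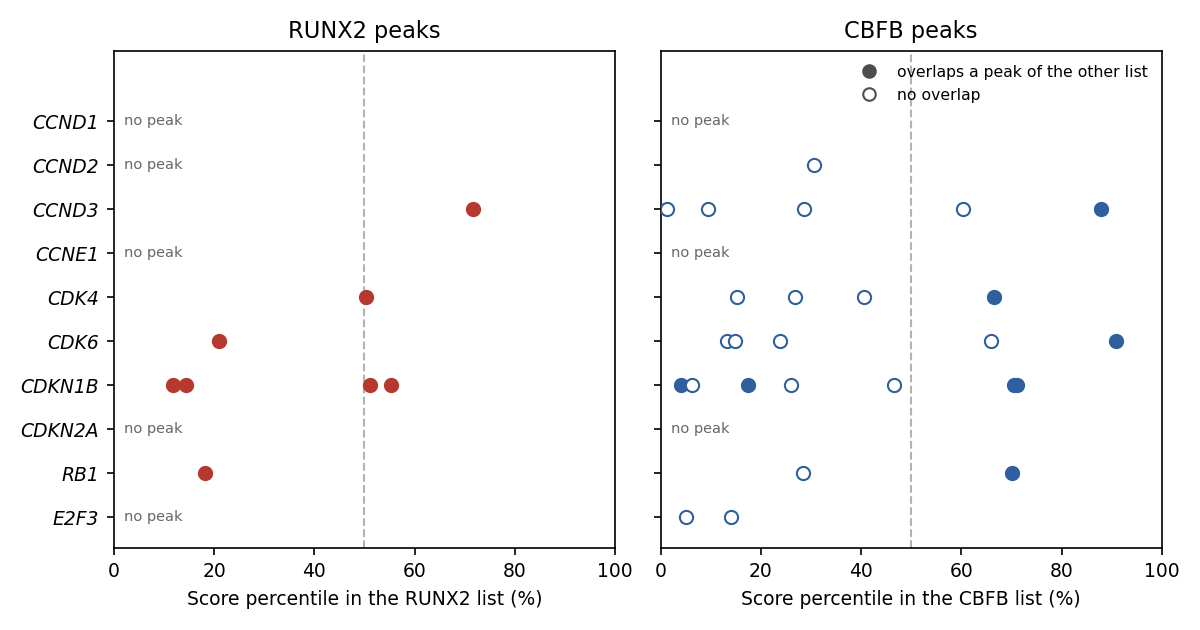
Score percentile of each RUNX2 peak (left) and CBFB peak (right) near the 10 genes, within its own list, with the dashed line at the middle of the list. Filled points overlap a peak of the other list, and all 8 RUNX2 peaks do. The CBFB peaks without a RUNX2 peak (open) reach no higher than a percentile of 66.0.

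The question of co-occupancy was addressed by overlap of at least 1 bp. Every RUNX2 peak near the G1 genes, 8 of 8, shared bases with a CBFB peak (100%, exact Clopper-Pearson 95% interval 63.1 to 100), and over the whole list 94.2% of RUNX2 peaks did so. Seen from CBFB, 8 of 26 peaks were shared with RUNX2 (30.8%, 14.3 to 51.8), beside 33.8% of the whole CBFB list. These intervals cover counting error only, and both shares near the G1 genes took in the share of the whole list. The 8 CBFB peaks with a RUNX2 peak had a median percentile of 70.3 and the 18 without had a median of 24.9. Their ranges, 4.15 to 90.8 and 1.34 to 66.0, overlapped. The same split over the whole CBFB list is not given here, so the difference cannot be read as particular to the G1 genes.

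CCND3, which encodes cyclin D3, had the RUNX2 peak of highest score among the G1 genes. It lay at chr6:41907029-41907939 in an intron, with its midpoint 2062 bp downstream of the start of the canonical transcript (the transcript that the annotation marks as representative) and 839 bp from the nearest annotated CCND3 start. Its score was 119.48, at the 71.7th percentile, and it was the only RUNX2 peak near the 10 genes that scored at least 100. A CBFB peak at chr6:41906863-41909039 covered it entirely, with a score of 399.85 at the 87.8th percentile. The RUNX core of this site was followed by a further T, giving TGTGGTT, called the long site here, and it stood 175 bp from the midpoint of the RUNX2 peak. The other 4 CBFB peaks of the CCND3 window had no RUNX2 peak and scored 51.01 to 153.43. The highest of these lay 58 bp from the start of a neighbouring gene, outside the CCND3 body.

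The other cyclins had no RUNX2 peak within reach. CCND2, which encodes cyclin D2, had 1 CBFB peak, at chr12:4429724-4430694, with a score of 82.68 at the 30.7th percentile. This peak lay 15.2 kb beyond the end of CCND2. Its midpoint was in an intron of the neighbouring gene TIGAR, 170 bp from the TIGAR start, so by nearest gene it was not a CCND2 peak. The core of this peak was a long site. The nearest RUNX2 peak to CCND2 was 172 kb away and scored 51.31, at the 3.39th percentile.

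CCND1, which encodes cyclin D1, lay 143 kb from the nearest peak of either list, at chr11:69312033-69312765 for RUNX2, upstream of the gene. The RUNX2 score there was 71.15 and the CBFB score was 268.67. Of all protein-coding genes, 33.7% were as far or farther from a RUNX2 peak and 14.4% from a CBFB peak. CCNE1, which encodes cyclin E1, was the most isolated of the 10 genes, with the nearest RUNX2 peak 568 kb and the nearest CBFB peak 567 kb downstream, both in an intron of ZNF536. For comparison, 11.4% of genes were as far from a RUNX2 peak and 4.08% as far from a CBFB peak. The median distance over all genes was 62.9 kb for RUNX2 and 6.74 kb for CBFB.

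Both kinases had a RUNX2 peak, but in unlike places. At CDK4, the RUNX2 peak at chr12:58145832-58146947 lay over the canonical start, with its midpoint 296 bp upstream. Its score was 84.41, at the 50.3rd percentile. The CBFB peak on it, at chr12:58145705-58146998, scored 180.4, at the 66.5th percentile, and the midpoints were 38 bp apart, the closest of the 8 pairs. The 1 RUNX core of this peak, printed above, stood at its edge, 552 bp from the midpoint, and was not a long site. The other 3 CBFB peaks of the CDK4 window, with scores of 63.2 to 99.33, lay in neighbouring genes (AGAP2 and EEF1AKMT3) and had no RUNX2 peak.

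At CDK6, the RUNX2 peak at chr7:92268883-92269720 lay deep in an intron, 196586 bp downstream of the canonical start, and its score of 60.09 placed it at the 21.0th percentile. The CBFB peak on it, at chr7:92268456-92269659, had the highest CBFB score near any of the 10 genes, 480.42 at the 90.8th percentile. The gap of 69.8 points between the percentiles, each within its own list, was matched or exceeded in 3.93% of the 9365 overlapping pairs of the whole list. In that count each RUNX2 peak was set beside its overlapping CBFB peak of highest score. The share is for single pairs, whereas the CDK6 pair had the largest gap of 8. The same stretch held 3 RUNX core copies within 107 bp, all on the minus strand and 2 of them long sites. Of all RUNX2 peaks, 20.5% held 3 or more copies anywhere in the peak, and of all CBFB peaks 26.1%. All 3 copies stood within 81 bp of the midpoint of the CBFB peak and 162 to 263 bp from that of the RUNX2 peak.

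CDK6 had 4 further CBFB peaks without a RUNX2 peak. The highest, at chr7:92250167-92251552, scored 177.99, at the 66.0th percentile, lay in the intron and held a long RUNX site. Near the canonical start of CDK6 there was a CBFB peak at chr7:92462161-92463097, 3258 bp downstream, with a score of 62.81 at the 14.9th percentile and no RUNX core. No RUNX2 peak was listed there. The highest CBFB score of CDK6 was in its intron and not at its start.

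Percentiles within lists of 9941 and 27246 peaks are not on the same scale, and a shared site generally stood higher in the longer CBFB list, so the gaps were read only beside those of all pairs. Across the 8 overlapping pairs, the CBFB peak had the higher percentile in 7, and over the whole list this was so in 84.8% of pairs. The gap was 50 points or more in 3 of 8 pairs, at CDK6, at the CDKN1B intron and at RB1, beside 15.6% of all pairs. The median gap was 16.1 points here and 19.6 points over all pairs. The 1 pair with the lower CBFB percentile lay downstream of CDKN1B, at the start of the neighbouring gene APOLD1.

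**Figure D3:**
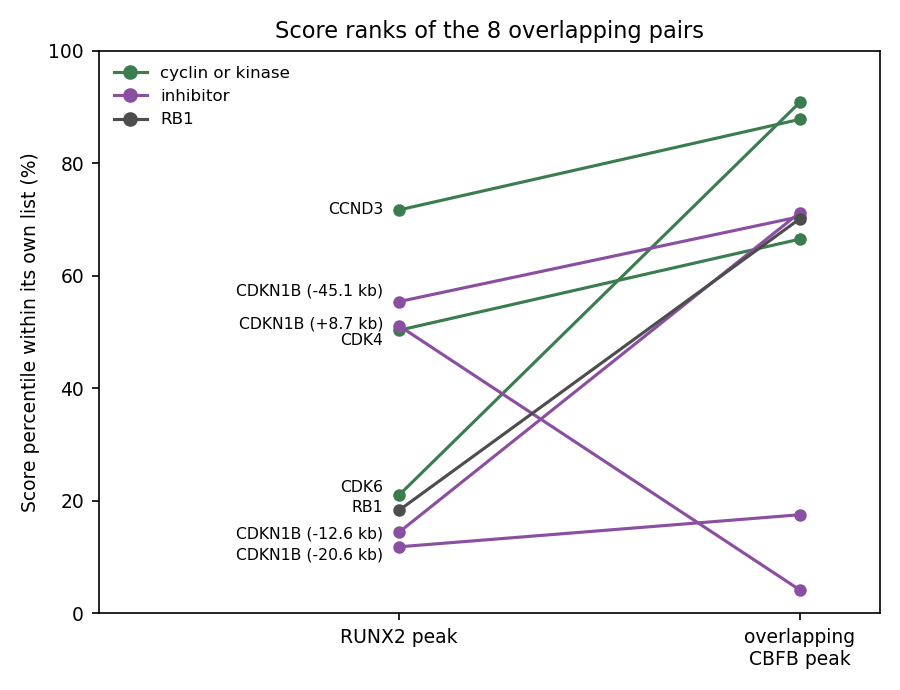
Score percentile of each of the 8 RUNX2 peaks in the RUNX2 list (left) and of the overlapping CBFB peak in the CBFB list (right), with cyclins and kinases in green, the inhibitor CDKN1B in purple and RB1 in grey. CDKN1B peaks are told apart by distance from the canonical start. All lines but 1 rise to the right, most steeply at CDK6, from 21.0 to 90.8.

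The inhibitor CDKN1B had 4 RUNX2 peaks and 7 CBFB peaks, more than any other of the 10 genes in RUNX2 peaks and in CBFB peaks. Of all protein-coding genes, 2.54% had 4 or more RUNX2 peaks within 25 kb, and among the 4033 genes of its length group 0.942% did. For 7 or more CBFB peaks the share of all genes was 3.66%. These shares are for single genes, whereas CDKN1B was singled out as the highest of 10. How often a set of 10 genes holds such a gene was not examined. The peak count of CDKN1B rests on its gene record, which begins at -31.9 kb from the canonical start. The record thus takes in a peak 45102 bp upstream of that start. With the canonical transcript as gene body, CDKN1B had 3 RUNX2 and 6 CBFB peaks, and 5.02% and 4.84% of genes had as many or more. The 4 RUNX2 peaks spread over 54.6 kb and did not include the canonical start. All 4 overlapped a CBFB peak, while the CBFB peak over the canonical start did not overlap a RUNX2 peak.

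The most distal of the 4 was that of highest score, 90.49 at the 55.4th percentile. It lay at chr12:12824713-12825688, 45102 bp upstream of the canonical CDKN1B start and within an intron of GPR19, a gene for an orphan receptor on the other strand. Its CBFB partner, at chr12:12824737-12825965, scored 202.7, at the 70.5th percentile. This peak held 2 RUNX core copies, neither of them a long site, and the copy printed above stood 81 bp from its midpoint. It was also the only 1 of the 8 RUNX2 peaks to hold an AP-1 motif (TGANTCA), in 2 copies, beside 37.9% of all RUNX2 peaks with at least 1.

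The second peak, at chr12:12849491-12850001, had the lowest RUNX2 score of the 8, 55.15 at the 11.8th percentile. It lay 20556 bp upstream of the canonical start but 408 bp from another annotated CDKN1B start, on the non-coding part of an exon, and its CBFB partner scored 65.78, at the 17.5th percentile. It held no RUNX core. The third, at chr12:12857308-12858135, lay in an intron of the gene record, 12581 bp upstream of the canonical start. Its RUNX2 score was also low, 56.44 at the 14.4th percentile, whereas its CBFB partner, at chr12:12856760-12858185, was the highest CBFB peak of the gene, 206.73 at the 71.2nd percentile. The long RUNX site printed above stood 95 bp from the midpoint of this RUNX2 peak.

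The fourth RUNX2 peak lay downstream of CDKN1B, at chr12:12878721-12879290, 8703 bp past the canonical start and 45 bp from the start of APOLD1. Its RUNX2 score of 85.4 placed it at the 51.1st percentile, but its CBFB partner scored 53.39, at the 4.15th percentile. Only 0.534% of all overlapping pairs had a gap as far in this direction as its -47.0 points. That share is for single pairs, whereas this pair had the lowest gap of 8. The fourth peak held no RUNX core. By nearest gene, 2 of the 4 RUNX2 peaks, the second and the third, belonged to CDKN1B, the other two lying in or at the neighbours GPR19 and APOLD1.

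Closer to the canonical start of CDKN1B there were CBFB peaks alone. That at chr12:12867960-12869076, 1784 bp upstream, scored 112.39, at the 46.5th percentile, and held 4 RUNX core copies, the most of any peak near the 10 genes. That at chr12:12869564-12870600 lay over the canonical start and scored 76.1, at the 26.0th percentile, with no core. The proximal promoter of CDKN1B was thus listed for CBFB and not for RUNX2.

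**Figure D4:**
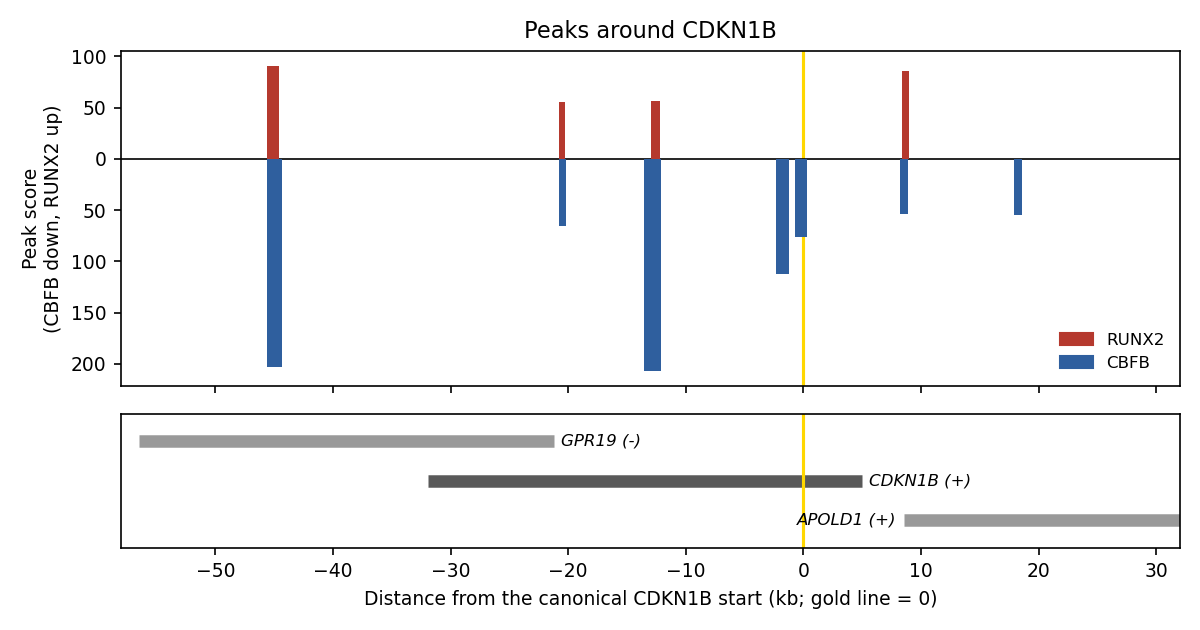
RUNX2 peaks (red, upward) and CBFB peaks (blue, downward) around CDKN1B, drawn to scale in width, with peak score as height and distance from the canonical start in kb on the horizontal axis. Gene bodies are below, with strand in brackets. RUNX2 scores lie between 55.15 and 90.49, and 4 of the 7 CBFB peaks lie under a RUNX2 peak.

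CDKN2A, the other inhibitor, had no peak of either list in its window of 77.5 kb. The nearest RUNX2 peak was 221 kb away, with a score of 110.98, and 25.3% of genes were as far or farther. The nearest CBFB peak was 45.3 kb away in an intron of CDKN2B-AS1, an antisense RNA gene of the same locus, with a score of 64.67. The lists hold no reads outside peaks, so whether the CDKN2A region was covered by reads at all was not analysed here.

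The contrast of cyclins and kinases with their inhibitors was therefore a contrast with CDKN1B alone. The 6 cyclin and kinase genes held 3 RUNX2 peaks in 717 kb of window, or 0.419 per 100 kb (exact Poisson 95% interval 0.0863 to 1.22), and the 2 inhibitors held 4 in 164 kb, or 2.43 per 100 kb (0.663 to 6.23). For CBFB the densities were 2.09 (1.17 to 3.45) and 4.26 (1.71 to 8.77) per 100 kb. Densities were higher on the inhibitor side for both proteins, but the intervals overlapped in both cases, and they cover counting error only. Over all protein-coding genes the pooled density was 0.519 for RUNX2 and 1.4 for CBFB per 100 kb. With peaks scoring 100 or more alone, 1 RUNX2 peak was left at cyclins and kinases (0.14 per 100 kb) and 0 at inhibitors (0.0). A single peak cannot set the order of the RUNX2 densities. For CBFB 5 and 3 peaks were left, and the order held, at 0.698 and 1.82. Counted by nearest gene, RUNX2 peaks numbered 3 at cyclins and kinases and 2 at inhibitors, and CBFB peaks 9 and 4. These are peak numbers and not densities, over 6 genes with 717 kb and 2 genes with 164 kb of window. By genes there was no difference in share, with RUNX2 peaks at 3 of 6 cyclin and kinase genes and 1 of 2 inhibitors. Genes are not replicates, and no test was made of this contrast.

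RB1 had 1 RUNX2 peak, at chr13:48877489-48878377, over its start, with its midpoint 46 bp from the canonical start. Its score was 58.6, at the 18.3rd percentile. The CBFB peak on it, at chr13:48877359-48879265, scored 200.17, at the 70.1th percentile. The RUNX2 peak had a GC content of 71.0%, the highest of the 8, and no RUNX core. It held the E2F motif printed above, which ended 18 bp before the canonical start. An E2F motif of either form searched (TTTCCCGC or TTTGGCGC) was found in 3.26% of all RUNX2 peaks, most of which lay away from starts. A second CBFB peak of RB1, at chr13:49024942-49026075, lay in an intron 147621 bp downstream with no RUNX2 peak, and scored 79.49, at the 28.5th percentile. It held 3 RUNX core copies, all long sites. Of these, 2 stood within 10 bp of its midpoint, on opposite strands.

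E2F3, which encodes an activating E2F factor, had CBFB peaks alone. That at chr6:20400794-20403171 lay over the start, with its midpoint 128 bp upstream, and scored 61.78, at the 14.0th percentile. Its E2F motif stood 46 bp before the start, and its 1 RUNX core 1110 bp from the midpoint. The other CBFB peak, at chr6:20438703-20439583 in an intron, scored 54.14, at the 5.04th percentile. The nearest RUNX2 peak was 214 kb away in an intron of CDKAL1 and scored 61.71.

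To place the peaks relative to start sites, midpoints within 5 kb of an annotated start were counted. RUNX2 midpoints lay there at 4 genes (CCND3, CDK4, CDKN1B and RB1), beside 16.8% of all protein-coding genes, and CBFB midpoints at 6 (the same 4 with CDK6 and E2F3), beside 37.9%. These shares of 10 genes are coarse, and the count depended on which transcripts were used. With the canonical start alone it was 3 for RUNX2, beside 12.3% of genes, and 6 for CBFB, beside 31.3%. With the outermost start of each gene record alone it was 2 for RUNX2, beside 12.1%, and 4 for CBFB, beside 30.5%. In a count chosen after the values were seen, the canonical start lay inside a RUNX2 peak at 2 genes, CDK4 and RB1, beside 7.46% of genes, and inside a CBFB peak at CDK4, CDKN1B, RB1 and E2F3, beside 20.8%.

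The peaks were then searched for motifs on both strands over their whole width. A RUNX core was found in 5 of the 8 RUNX2 peaks, beside 78.1% of the whole list and 76.7% of RUNX2 peaks of the same width range. The long site, which overlaps the core, was found in 3 (CCND3, CDK6 and the CDKN1B intron), beside 49.1%. For CBFB, 16 of the 26 peaks held a core, beside 80.9% of the list, 10 held the long site, beside 51.3%, and 8 an AP-1 motif, beside 42.1%. The GC box, GGGCGG, a sequence common in promoters, was found in 5 of the 8 RUNX2 peaks and 16 of the 26 CBFB peaks, beside 33.8% and 36.8%. An E2F motif, TTTCCCGC or TTTGGCGC, was found in 1 RUNX2 peak and 4 CBFB peaks, beside 3.26% and 3.65% of the lists. These CBFB peaks were those over the RB1 and E2F3 starts, 1 beside a neighbouring gene of CCND3 and 1 inside neighbouring genes of CDK4. The share of this motif among peaks near starts alone is not given here. A match is a sequence and not proof of a bound factor, and all RUNX proteins read the same core.

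The motif content of the 8 RUNX2 peaks followed their place. This split, chosen after the values were seen, set the 5 peaks whose midpoint was at most 1 kb from a protein-coding start (CCND3, CDK4, RB1 and, of CDKN1B, the second and the fourth) beside the 3 farther away (CDK6 and, of CDKN1B, the first and the third). All 5 near a start held a GC box and 2 of them a RUNX core, whereas all 3 away from starts held a RUNX core and 0 a GC box. The whole RUNX2 list had the same order, with a GC box in 75.9% of the 2122 peaks near starts and 22.3% of the 7806 others, and a core in 53.8% and 84.8%. Near the G1 genes the CBFB peaks were alike, with a core in 6 of 14 peaks near starts and 10 of 12 others, and a GC box in 13 and 3. In the whole CBFB list the core was in 59.3% and 86.6%, and the GC box in 81.9% and 24.7%.

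**Figure D5:**
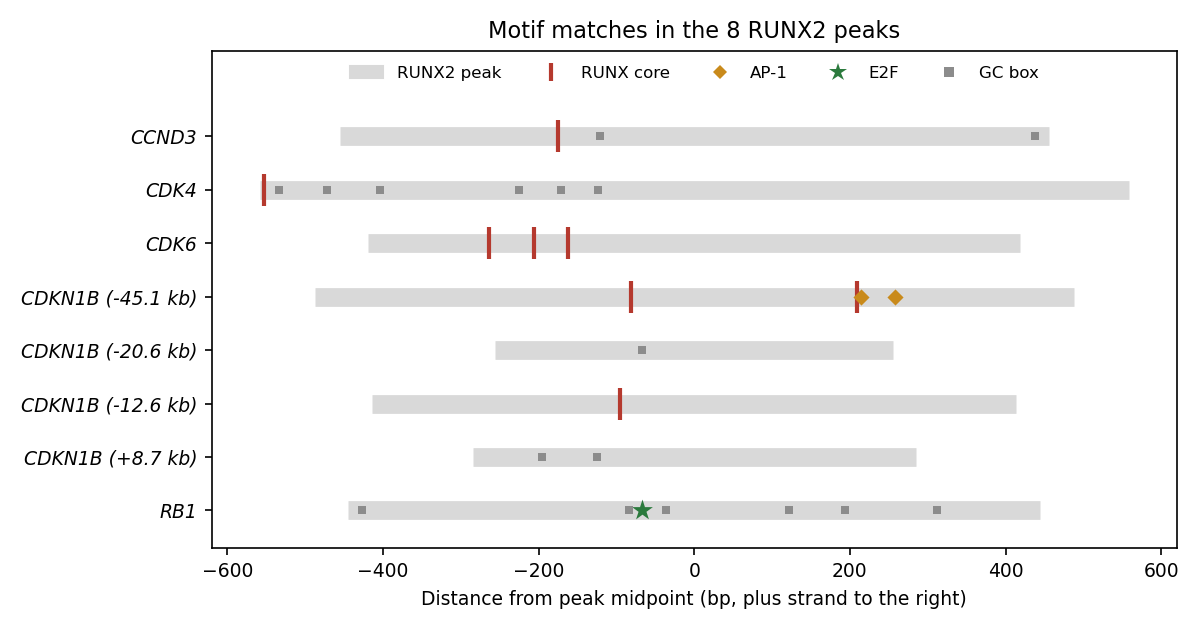
Position of motif matches in the 8 RUNX2 peaks, in bp from the peak midpoint on the plus strand, with the peak as a grey bar and CDKN1B peaks told apart by distance from the canonical start. RUNX cores (red) are present in 5 peaks, with 3 close together at CDK6, and the peaks without a core (RB1 and 2 of CDKN1B) hold GC boxes.

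To see the wider pathway, 18 further G1 and restriction-point genes were counted in the same way. RUNX2 peaks numbered 9 at 7 of these genes and CBFB peaks 29 at 13, or 0.583 and 1.88 per 100 kb, close to the 0.585 and 1.9 per 100 kb of the 10 genes above. Averaged over the length groups of the 18 genes, 34% of protein-coding genes had a RUNX2 peak and 59.7% a CBFB peak. RUNX2 peaks were found at 2 of 5 further cyclins, kinases and activators (CCNA2 and SKP2), at 1 of 5 further inhibitors (CDKN2C, with 2 peaks) and at 4 of 8 pocket proteins and E2F or DP factors (E2F2, E2F4, TFDP1 and TFDP2). All 9 overlapped a CBFB peak. In this list 5 genes had neither protein, beside the 36.9% of all genes given above.

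The RUNX2 peak of highest score in this list was in an intron of TFDP1, which encodes the dimer partner of E2F factors, at chr13:114258292-114259174, with a score of 100.57 at the 62.1st percentile. SKP2 encodes the ubiquitin ligase subunit that marks p27 for degradation. Its RUNX2 peak at chr5:36151666-36152715 lay over the canonical start, with its midpoint 23 bp upstream, and scored 88.45, at the 53.7th percentile. The peak counted for E2F2, at chr1:23881204-23882311, scored 82.69, at the 48.8th percentile, and lay 24032 bp upstream of E2F2 and nearer to ID3. The CBFB partners of these peaks scored 130.3, 159.97 and 281.11.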

How the data were processed

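ChIP DNA of untreated SAOS2 cells was sequenced with 1 library per antibody and no replicates, so no test was made and no p-value given. Groups were taken from the sample labels. The authors called peaks with MACS on hg19, and the submitters' processing notes name MACS 1.4.1 and CASAVA 1.8.2. The aligner, the calling limit and whether input served as control are not given in the sources used here. The deposited lists gave the position and score of each peak. The score, 50 to 3100 in both lists, was read from its values as the MACS score, -10 times log10 of the p-value, and was used to rank or filter within a list. For overlapping peaks the percentiles within the 2 lists were set side by side and their gap was read against that of all pairs. Read counts were not in the lists, so depth, and with it the precision of each score, is unknown.

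Genes, transcripts and starts came from GENCODE release 44 lifted to GRCh37, and sequences were read from GRCh37. Coordinates are counted from 1. A peak was counted for a gene when any base lay within 25 kb of the gene record. All 10 genes are named, with every RUNX2 peak, its overlapping CBFB peak and the CBFB peak of highest score. Of the 18 further genes, the 3 with the highest RUNX2 score are named. The core copy printed is the nearest to the midpoint of the top RUNX2 peak, or of the top CBFB peak where there was none. The remaining peaks and sequences were named after their values were seen. The genes and lists were chosen with earlier results of these data known. Peaks on other contigs (13 RUNX2 and 42 CBFB) were left out of the motif steps. The counting steps were tested on simulated data. Intervals are exact 95% intervals. Alternatives changed the reach, the score limit, the gene body, the starts, the overlap rule and the motif. Analyses used matplotlib 3.10.9, scipy 1.17.1, pandas 2.3.3 and numpy 2.4.6 in Python 3.11.15.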

Additional observations from a re-analysis of the deposited data

How the results depend on the processing

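Of 58 alternatives to 13 results, 47 left the value within its spread or within 1.5 times the count, and 10 of the 58, which took the canonical transcript as gene body or its start alone, were chosen after seeing the data. The spreads are wide at such small counts, so large changes can lie within them. At a score of 100 or more, RUNX2 density at cyclins and kinases fell from 0.419 to 0.14 per 100 kb, within its spread. The share of CBFB peaks overlapping a RUNX2 peak fell from 30.8% to 15.4% with midpoints within 200 bp, also within its spread. The score limit mattered most. With a score of 100 or more, RUNX2 peaks near the genes fell from 8 to 1, at CCND3, and the genes with a RUNX2 peak from 5 to 1. The same limit left 9 of the 26 CBFB peaks and 0.698 CBFB peaks per 100 kb at cyclins and kinases. It left 0.0 RUNX2 peaks per 100 kb at inhibitors against 0.14 at cyclins and kinases, which rests on 1 peak and sets no order. With the limit applied to the RUNX2 list, 3.85% of the CBFB peaks overlapped. Counting CBFB peaks only where the nearest gene was one of the 10 left 17, at 6 genes, with CCND2 no longer among them. With the outermost start alone, 2 genes had a RUNX2 midpoint near a start. Requiring midpoints within 200 bp gave 50% of RUNX2 peaks with a CBFB peak. A core within 100 bp of the midpoint was found in 2 of the 8 RUNX2 peaks, beside 43.2% of the whole list. TGTGGTT in the whole peak was found in 3, beside 49.1%. Shares over all genes or peaks under the score limit or the 200 bp rule are not given here. Whether those falls are particular to the G1 genes therefore cannot be read from them. The cause of these shifts was not tested beyond the construction of each alternative. No paired analysis was possible because there was 1 library for each antibody. Without replicates, neither the scores nor the absence of a peak has a replicate check, and at unknown depth a region without a listed peak cannot be told apart from one below the calling limit.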
